A study of Mus musculus with 4 samples.

Results

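Developmental transcription factors of 12 gene families were followed through 82 single cells sorted from the mouse brain. The members were all rows whose symbols matched the names of the Sox, Fox, Nfi, Pax, Lhx, Meis, Pbx, Pou, Klf, Zic, Tcf, Otx and Hes families, apart from Sox4, Sox11, Pbx3 and Foxj1. This gave 61 of the 15305 rows of the count table, and no row matched the Lhx pattern. The largest families were Fox with 13 rows, Klf with 11, Pou and Tcf with 7 each, and Sox with 6, followed by Nfi with 4, Meis and Pbx with 3 each, Hes, Otx and Zic with 2 each, and Pax with 1. Of the 61 rows, 53 reached 10 or more counts in at least 1 cell, 1 row (Foxd2os) stayed under 10, and 7 were at 0 in every cell. Those 7 were Tcf23, Zic2, Klf4, Foxj2, Sox15, Pbx2 and Foxo4. Foxd2os and Otx2os1 are opposite-strand transcripts, not factors.

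All cells came from mice of the Penk-Cre Ai9 line, labelled WT, in which Cre made wherever the Penk gene is or was active switches on the red reporter tdTomato for good. Single reporter-positive cells were sorted into plates from dissociated striatal and subventricular zone tissue. In dataset A (1 plate) cells with the microglial surface protein CD11b were left out, whereas in dataset B (4 plates) every reporter-positive cell could be taken. Per dataset the labels name 1 sample of neuroblasts and 1 of quiescent stem cells, 4 in all, but no cell could be tied to them, and neither the animals' number or age nor any pooling is stated in the labels. Because the reporter records past as well as present Penk activity, it marks no single cell type.

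Transcription factors of these families bind DNA through family-specific domains, among them the HMG box of Sox proteins, the winged helix of Fox proteins and the zinc fingers of Klf proteins. In the subventricular zone, combinations of such factors accompany the step from a glia-like stem cell to a migrating neuroblast bound for the olfactory bulb. Otx2, by contrast, is known for its role in the choroid plexus, the secretory epithelium of the ventricles, where the secreted enzyme Enpp2 is also abundant.

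Cells were divided by the counts of 2 genes that are no members. Cells with 10 or more Sox11 counts, called Sox11 cells, numbered 16 in dataset A and 25 in dataset B. Cells in which Enpp2 took 1% or more of all counts, called Enpp2-rich cells, numbered 14 and 16. Another 9 cells of dataset A passed neither threshold and are called the rest, and 2 cells of dataset A passed both. Around the Sox11 threshold the nearest cells held 7 counts below it and 20 and 49 above it. Around the Enpp2 threshold the nearest cells stood at 0.424% and 0.999% below it and at 1.25% and 1.93% above it.

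The classes differed in their marker genes, and several cells went against their class. The 20 neuroblast markers took a median of 2.03% of counts in the Sox11 cells of dataset A and 2.61% in those of dataset B, against at most 0.172% in any Enpp2-rich cell. The classes overlapped, since 3 Sox11 cells of dataset A gave 0.00218% to 0.0969% to these markers. The 16 choroid plexus markers, which include Otx2, took 8.41% to 69.6% of counts in the Enpp2-rich cells of dataset A and 2.28% to 17.2% in those of dataset B. In the rest, 6 of 9 cells gave 1.64% to 5.23% of counts to astroglia and quiescent stem cell markers, a list that includes Sox9, and 1 cell gave 42.9% to oligodendrocyte markers. Ependymal, vascular and striatal projection neuron markers took at most 0.18%, 0.229% and 0.451% of counts in any cell of the 3 classes. Of the 16 Sox11 cells of dataset A, 4 had fewer than 1000 Sox11 counts (20, 49, 972 and 992), whereas every Sox11 cell of dataset B had at least 7788. The cell with 992 gave 78.7% of its counts to choroid plexus markers, and the cell with 20 gave 2.36% to microglial markers. The cell with 972 gave 0.727% to astroglia and quiescent stem cell markers against 0.0969% to neuroblast markers. The cell with 49, by contrast, gave 0.682% to neuroblast markers and 0% to choroid plexus markers, so the 4 cells are not all against their class. Where a member's pool of dataset A moved by more than 1.5 times without these 4 cells, its value without them is given too. The classes are therefore ranges of 2 genes, not cell types, and dataset and sort gate cannot be told apart. Dataset A is 1 plate, whereas the 4 plates of dataset B share 1 gate, so plates can be compared within it. Cells held 530630 to 7765650 counts each.

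Promoter sequences are shown for Otx2, which reached 10 counts in Enpp2-rich but in no Sox11 cells, and for Pou3f2, Pou3f3 and Pou3f4, a subfamily with no count in any Enpp2-rich cell. RefSeq windows (build GRCm38.p6) run from 250 bases before to 50 bases after a transcription start, and 46 of the 61 members had at least 1. The window of Otx2, 1 of its 4, lies at chr14:48667595-48667894 on the minus strand, that of Pou3f2 at chr4:22488317-22488616 on the minus strand, that of Pou3f3 at chr1:42695518-42695817 on the plus strand and that of Pou3f4 at chrX:110814129-110814428 on the plus strand. Capitals mark matches to motifs of the member families.
Otx2: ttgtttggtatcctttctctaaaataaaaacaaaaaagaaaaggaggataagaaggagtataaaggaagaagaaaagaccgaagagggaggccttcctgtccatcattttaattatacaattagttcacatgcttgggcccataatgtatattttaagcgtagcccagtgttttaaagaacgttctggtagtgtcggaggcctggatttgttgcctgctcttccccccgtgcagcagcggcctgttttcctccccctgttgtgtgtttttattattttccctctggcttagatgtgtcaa
Pou3f2: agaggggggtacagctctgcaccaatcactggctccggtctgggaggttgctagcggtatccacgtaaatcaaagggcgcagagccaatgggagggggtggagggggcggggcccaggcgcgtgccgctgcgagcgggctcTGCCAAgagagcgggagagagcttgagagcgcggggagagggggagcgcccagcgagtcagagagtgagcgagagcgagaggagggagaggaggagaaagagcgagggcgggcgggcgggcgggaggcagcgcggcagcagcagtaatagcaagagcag
Pou3f3: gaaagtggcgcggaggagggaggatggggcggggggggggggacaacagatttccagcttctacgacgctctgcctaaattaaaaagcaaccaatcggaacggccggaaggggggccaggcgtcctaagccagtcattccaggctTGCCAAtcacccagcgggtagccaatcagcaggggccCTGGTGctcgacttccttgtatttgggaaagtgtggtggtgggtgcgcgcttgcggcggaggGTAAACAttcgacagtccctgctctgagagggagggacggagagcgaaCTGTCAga
Pou3f4: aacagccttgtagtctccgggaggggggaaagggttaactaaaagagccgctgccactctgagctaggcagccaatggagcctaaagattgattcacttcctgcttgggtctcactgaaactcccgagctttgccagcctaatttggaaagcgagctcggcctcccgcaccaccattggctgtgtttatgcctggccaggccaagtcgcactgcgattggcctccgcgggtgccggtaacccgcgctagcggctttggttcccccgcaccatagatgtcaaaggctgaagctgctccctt

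The search covered 9 motifs on both strands, and no matches overlapped in the 4 windows. The NFI half-site TTGGCA, present in 14.1% of the 32851 windows of all genes, was found as TGCCAA 109 bases before the start of Pou3f2 (position -109) and at -105 of Pou3f3. Pou3f3 also held the forkhead heptamer TGTTTAC as GTAAACA at -6 (3.65% of all windows), the TALE hexamer TGACAG as CTGTCA at 42 (19.2%) and the N-box CACNAG, bound by Hes proteins, as CTGGTG at -68 (42.5%). No window printed here held the bicoid-type site TAATCC (7.06% of all windows), the octamer ATGCAAAT (1.74%), the E-box CAGNTG (51.4%), the Sox site AACAAT (10.7%) or the CACCC box CCACACCC (3.56%). A match describes letters in these windows only.

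More members were read in a Sox11 cell than in an Enpp2-rich cell. After each cell was thinned to 500000 counts, the median Sox11 cell had 12.5 members at 10 or more counts in dataset A and 12 in dataset B. The median Enpp2-rich cell had 2.5 and 6.0, and the median cell of the rest had 5.0. Averaged over the datasets the medians were 12.2 ± 0.354 (SD, n = 2) and 4.25 ± 2.47, a difference of 8.0 members. An exact two-sided permutation test over the 4 medians gave p = 0.333, the smallest it can give. The cells also differed in how many genes of any kind reached 10 counts at that depth, with medians of 1052 and 1151 genes in Sox11 cells and 762 and 1012 in Enpp2-rich cells. In the median cell, members made up 1.07% and 0.922% of those genes in Sox11 cells and 0.313% and 0.498% in Enpp2-rich cells.

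**Figure D1:**
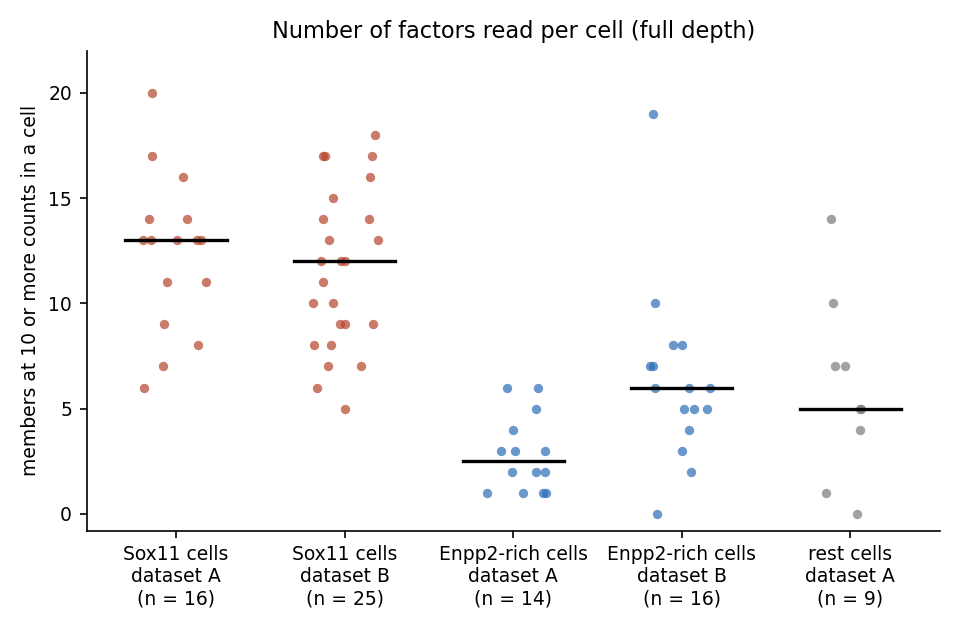
Number of members at 10 or more counts in each cell at full depth (points), by class and dataset, with the median as a bar. Medians were 13 and 12 in Sox11 cells, 2.5 and 6.0 in Enpp2-rich cells and 5.0 in the rest; 1 Enpp2-rich cell of dataset B reached 19.

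For the comparison of levels, the cells of each class were pooled by dataset, giving 4 pools, and pooled counts were scaled to a total of 1000000 (CPM). CPM values are not scaled to gene length, so levels are compared between classes and never between genes. Of the 53 members with a count in a pool, 25 (47.2%) had a higher CPM in Sox11 cells in both datasets, against 27.9% of the 13099 genes with a count. Another 3 (5.66%: Tcf12, Nfic and Otx2) were lower in both, against 11.9%. For Nfic this rests on 9 and 15 counts in the Enpp2-rich pools, with no Enpp2-rich cell at 10 counts. Among the 29 members at 10 counts in 8 or more cells, 20 (69.0%) were higher in both datasets against 48.7% of 4055 such genes, 2 (Tcf12 and Otx2) were lower against 22.6%, and 7 (24.1%) pointed in opposite directions against 26.8%. Of the 117 Sox11 or Enpp2-rich pools of members with a cell at 10 counts, 73 took over 50% of a member's counts from 1 cell, and the share is given below where a level rests on it most. Of the same 29 members, 10 reached 10 counts in no Enpp2-rich cell (11.1% of all such genes) and Otx2 alone reached it in no Sox11 cell (1.9%).

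No member passed the test across all genes. The quasi-likelihood test of edgeR on the 4 pools called 0 of 7189 genes at an adjusted p under 0.05 (0%), and 0 of the 38 members tested. Unadjusted p-values were under 0.05 for 1015 genes (14.1%) and for 17 members (44.7%), of which 16 were higher in Sox11 cells. The median log2 difference, Sox11 over Enpp2-rich cells, was 4.66 over the 38 members and 0.50 over all genes tested. DESeq2, run as an alternative, called 3173 of 10559 genes (30.1%) and 23 of 51 members (45.1%), 19 of these higher in Sox11 cells. Leaving out the Sox11 pool of dataset A, edgeR called 198 of 9845 genes (2.01%) and 5 of 47 members (Klf7, Meis2, Nfib, Otx2 and Tcf4). Leaving out that of dataset B, it called 111 of 8626 genes (1.29%) and 3 of 49 members (Klf7, Tcf4 and Pou3f4). In each of these 2 fits the Sox11 class is 1 pool, which is assumed to vary like the Enpp2-rich pools, and 1 cell gave 90.4% of the Pou3f4 counts of the pool that remained. Adjusted p-values below are from edgeR with Benjamini-Hochberg adjustment over all genes. They come from the fit on all 4 pools and reflect the spread between 2 pools per class, which differ in dataset and sort gate.

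**Figure D2:**
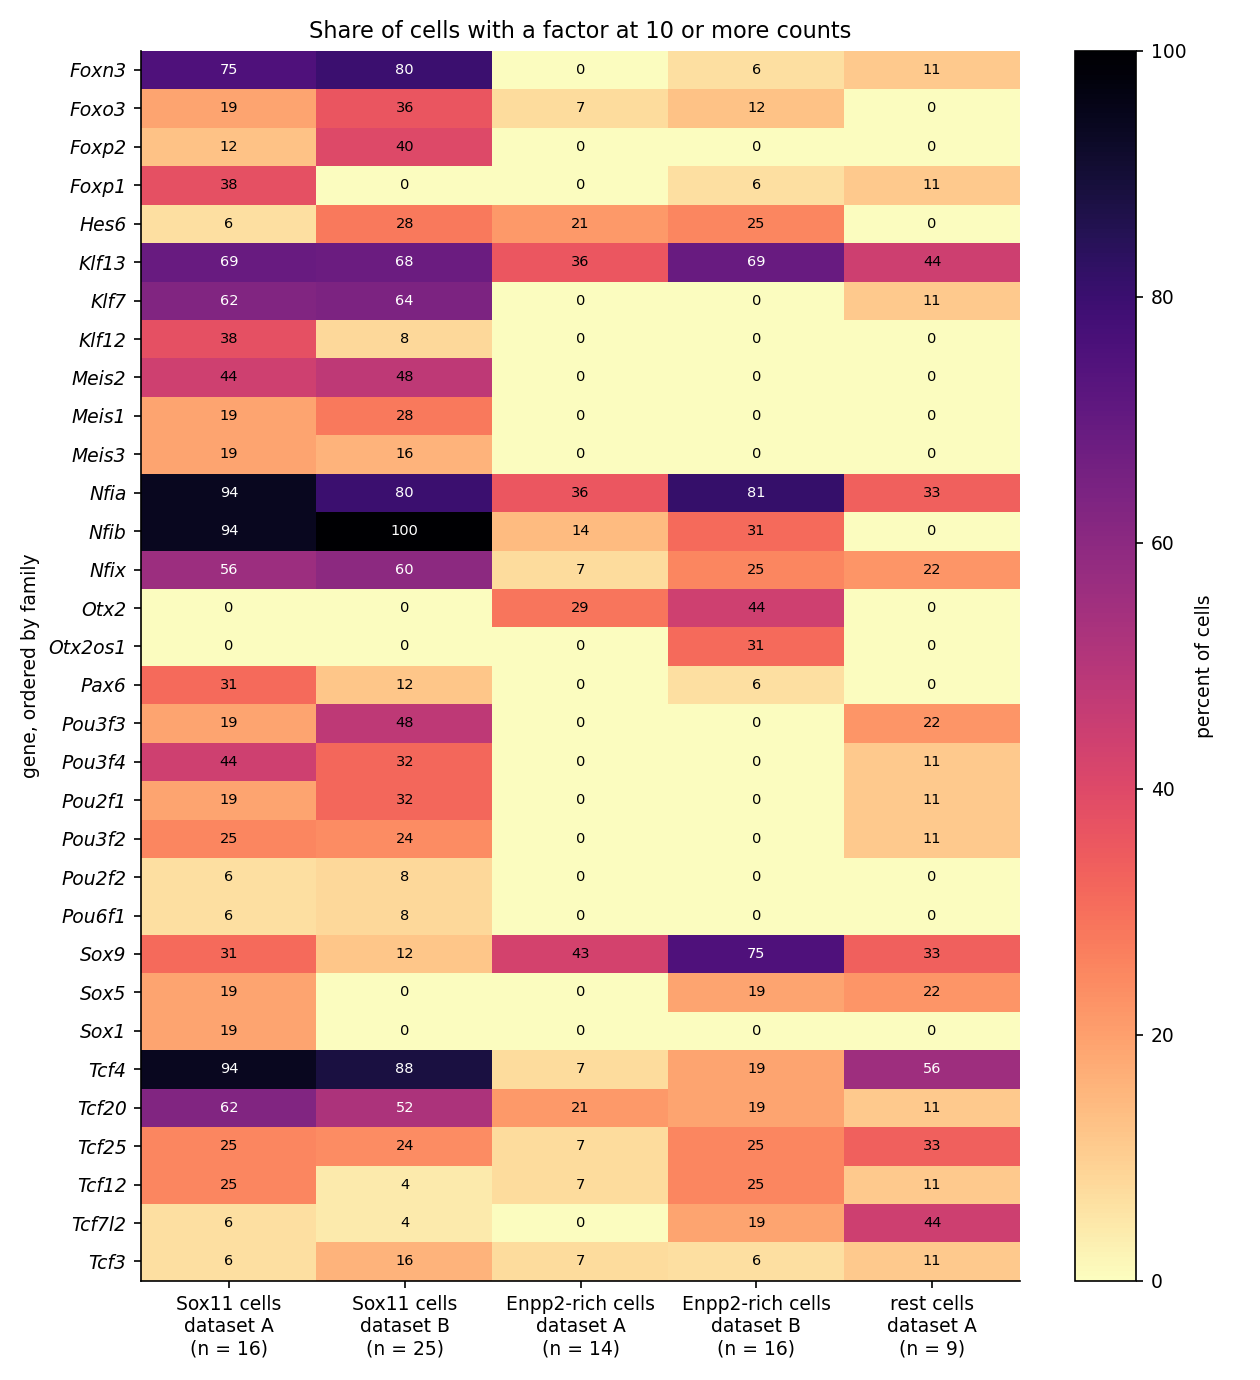
Percentage of cells with 10 or more counts of each of the 32 members described with values (rows, ordered by family), in the 5 groups of cells (columns). Nfib, Tcf4 and Nfia fill the Sox11 columns at 80% to 100%, the POU class III and Meis rows stand at 0 in both Enpp2-rich columns, and the Otx2 rows at 0 in both Sox11 columns.

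The nuclear factor I genes, regulators of glial and neuronal differentiation, were the most widely read family. Nfib reached 10 counts in 15 of 16 and 25 of 25 Sox11 cells, in 2 of 14 and 5 of 16 Enpp2-rich cells and in 0 of 9 cells of the rest. The exact 95% intervals of these shares, which do not cover the spread between animals, plates or sorts, were 69.8% to 99.8% and 86.3% to 100% in Sox11 cells and 1.78% to 42.8% and 11% to 58.7% in Enpp2-rich cells. The pooled Nfib level was 3648 and 6002 CPM in Sox11 cells of datasets A and B, 35.0 and 171 CPM in Enpp2-rich cells and 0.124 CPM in the rest. The pools did not overlap, and over both datasets the level was 51.1-fold higher in Sox11 cells (log2 difference 5.23 ± 1.05 (SE), adjusted p = 0.223), with 65.8% of the counts of the Enpp2-rich pool of dataset B from 1 cell. The median Sox11 cell held 3953 CPM of Nfib in dataset A and 4832 in dataset B, whereas the highest Enpp2-rich cell held 1431. Nfib was read in all Sox11 cells of each plate of dataset B, with pools of 2834 to 7449 CPM. Without the 4 cells of dataset A under 1000 Sox11 counts, Nfib was read in 12 of 12 cells at 5170 CPM.

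Nfia was read in all 3 classes. It reached 10 counts in 15 of 16 and 20 of 25 Sox11 cells, in 5 of 14 and 13 of 16 Enpp2-rich cells and in 3 of 9 cells of the rest. The pools stood at 439 and 779 CPM in Sox11 cells, 41.3 and 379 CPM in Enpp2-rich cells and 16.1 CPM in the rest. The Enpp2-rich pool of dataset B was close to the Sox11 pool of dataset A, and the log2 difference between the classes was 1.29 ± 1.15 (SE, adjusted p = 0.826). Nfix reached 10 counts in 9 of 16 and 15 of 25 Sox11 cells, 1 of 14 and 4 of 16 Enpp2-rich cells and 2 of 9 cells of the rest. The Nfix pools stood at 270.1 and 248 CPM, 7.45 and 14.4 CPM, and 141 CPM (log2 difference 4.10 ± 1.47, adjusted p = 0.335). All 24 Sox11 cells with Nfix also had Nfib, whereas 3 of the 4 Nfix-positive Enpp2-rich cells of dataset B and the 1 of dataset A lacked it. With or without Nfix, Nfib was read in 15 of 16 and 25 of 25 Sox11 cells. In Enpp2-rich cells it was read in 2 of 14 and 5 of 16. Whether Nfix goes with Nfib beyond these shares was not tested. All of Nfia, Nfib and Nfix were read together in 8 of 16 and 13 of 25 Sox11 cells and in 0 of 14 and 1 of 16 Enpp2-rich cells. Nfic, the remaining family member, reached 10 counts in 2 cells of the rest and 1 of the cells past both thresholds.

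Among the rows named Tcf, Tcf3, Tcf4 and Tcf12 encode E proteins, the partners of proneural bHLH factors. Tcf4 reached 10 counts in 15 of 16 and 22 of 25 Sox11 cells, in 1 of 14 and 3 of 16 Enpp2-rich cells and in 5 of 9 cells of the rest. Tcf4 pools stood at 2220 and 1807 CPM in Sox11 cells, 2.65 and 47.3 CPM in Enpp2-rich cells and 231 CPM in the rest. The Sox11 pools were the highest and over both datasets stood 80.9-fold above the Enpp2-rich pools (log2 difference 6.18 ± 1.54 (SE), adjusted p = 0.238), with 92.9% and 58.2% of the Enpp2-rich counts of datasets A and B from 1 cell each. The 3 Sox11 cells of dataset B below 10 counts were all 3 on plate P3. That plate's pool was at 1.82 CPM of Tcf4, whereas its Nfib pool was at 5578 CPM. On the other plates of dataset B all 22 Sox11 cells had Tcf4, with pools of 1289 to 3525 CPM. The other E proteins had no such division by class. Tcf12 stood at 22.6 and 18.3 CPM in Sox11 cells, 83.3 and 187 CPM in Enpp2-rich cells and 227 CPM in the rest, but single cells supplied 100% of the Enpp2-rich counts in dataset A and 65.0% in dataset B, and 99.9% of the Sox11 counts in dataset B (log2 difference -3.15 ± 1.64, adjusted p = 0.477). Tcf3 was at 1.56 and 4.02 CPM in Sox11 cells and at 74.2 and 3.13 CPM in Enpp2-rich cells, the 74.2 from 1 cell. Without the 4 cells of low Sox11, Tcf3 was at 0 in the Sox11 pool of dataset A.

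**Figure D3:**
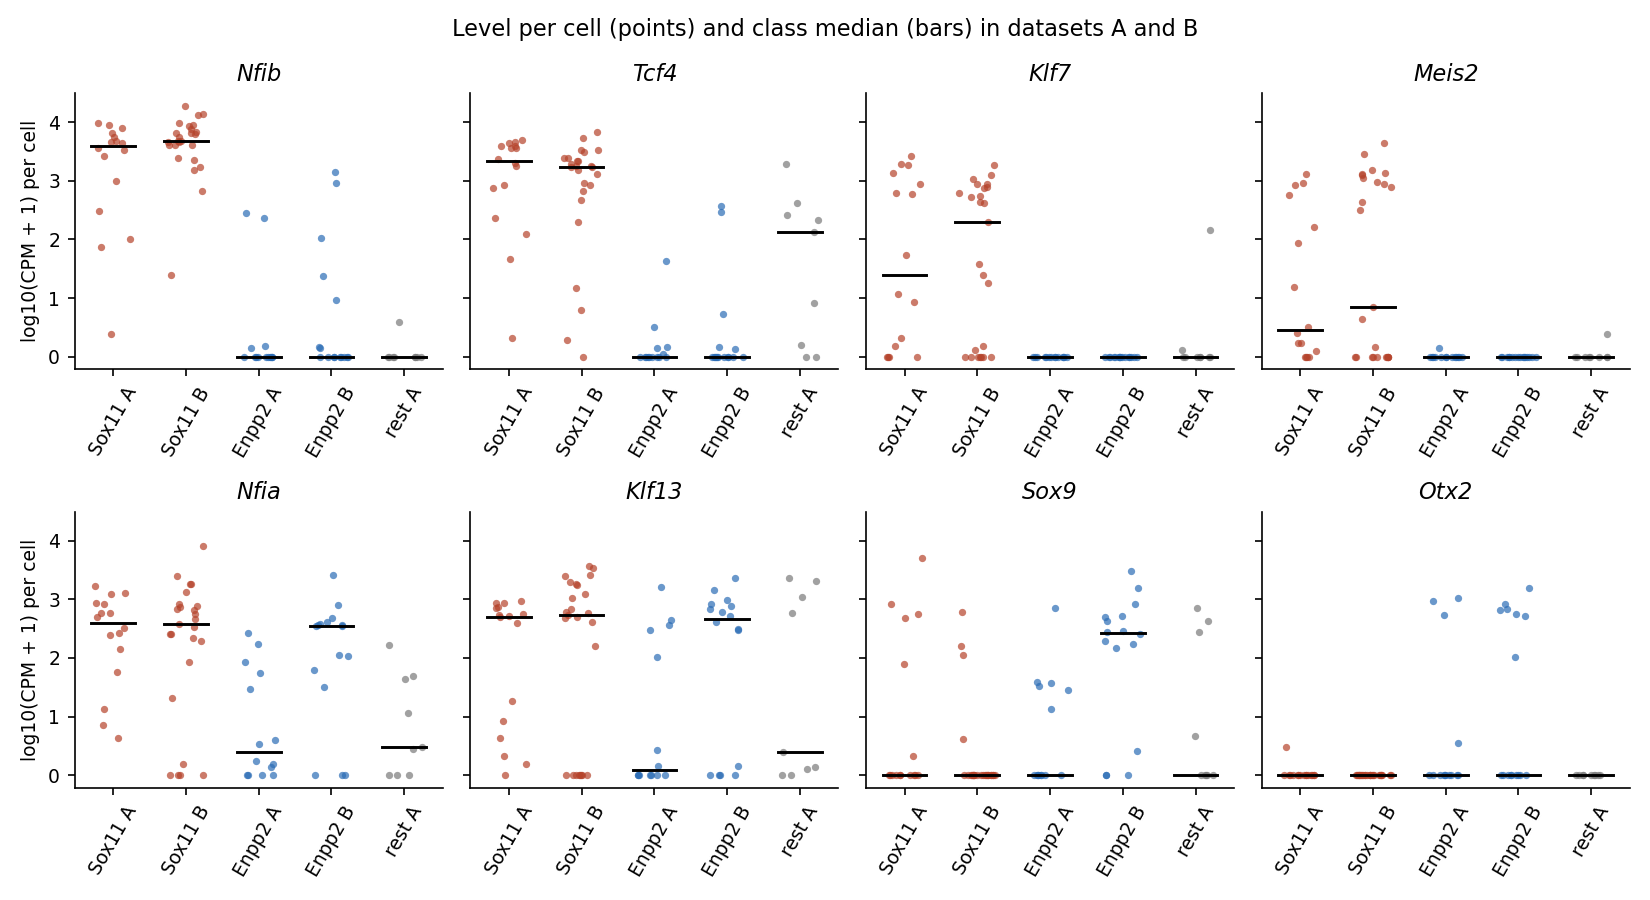
Level of 8 members in each cell as log10(CPM + 1) (points), with the median of each group as a bar; Sox11 cells are red, Enpp2-rich cells blue and the rest grey. Klf7 and Meis2 lie at or near 0 in all Enpp2-rich cells, Nfia and Klf13 spread over all classes, and Otx2 stands well above 0 in some Enpp2-rich cells alone.

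Tcf20 and Tcf25, which are unrelated to the E proteins and to the Wnt effectors, were read in each class. Tcf20, a chromatin-associated coregulator, reached 10 counts in 10 of 16 and 13 of 25 Sox11 cells and in 3 of 14 and 3 of 16 Enpp2-rich cells, with pools of 281 and 238 CPM against 45.3 and 50.3 CPM (log2 difference 1.85 ± 1.25, adjusted p = 0.673). Tcf25 was at 451 and 137 CPM in Sox11 cells, 40.1 and 168 CPM in Enpp2-rich cells and 259.6 CPM in the rest. The Tcf25 level of dataset A was 301 CPM without the 4 cells of low Sox11, and the log2 difference went from 1.23 to -0.31. Tcf7l2, a nuclear effector of Wnt signalling, reached 10 counts in 4 of 9 cells of the rest at a pooled 244 CPM, but in only 1 of 16 and 1 of 25 Sox11 cells and 0 of 14 and 3 of 16 Enpp2-rich cells. The 87.9 CPM of Tcf7l2 in the Sox11 pool of dataset A came from 1 cell with 972 Sox11 counts, without which the pool was at 0.

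The POU class III genes, homeobox genes of neural development, were read in Sox11 cells and a few cells of the rest. At least 1 of Pou3f2, Pou3f3 and Pou3f4 reached 10 counts in all but 6 of 16 and 9 of 25 Sox11 cells, in 3 of 9 cells of the rest and in none of the 14 and 16 Enpp2-rich cells. Not a single count of the 3 genes fell in the 30 Enpp2-rich cells, in 71405854 counts. With exact 95% binomial (Clopper-Pearson) limits, 0 of 14 and 0 of 16 cells allow shares of up to 23.2% and 20.6%. No motif match was common to the 3 windows printed above.

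Pou3f3 reached 10 counts in 3 of 16 and 12 of 25 Sox11 cells, with pools of 39.8 and 304 CPM, and in 2 of 9 cells of the rest at 35.5 CPM. The difference from the Enpp2-rich pools, at 0, did not pass (adjusted p = 0.262). Pou3f2 reached 10 counts in 4 of 16 and 6 of 25 Sox11 cells at 84.5 and 338 CPM, and 1 cell supplied 90.6% of the counts of dataset A (adjusted p = 0.234). Pou3f4, the X-linked member, reached 10 counts in 7 of 16 and 8 of 25 Sox11 cells at 1218 and 30.2 CPM (adjusted p = 0.234). In dataset A, 90.4% of its counts came from 1 cell, which had 49 Sox11 counts, and without the 4 cells of low Sox11 the pool was at 169.8 CPM. Exactly 1 of the 3 genes was read in 6 and 9 Sox11 cells of datasets A and B, 2 of them in 4 and 4, and all 3 in 0 and 3.

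Of the other POU genes, Pou2f1, which encodes the broadly expressed octamer-binding protein Oct1, reached 10 counts in 3 of 16 and 8 of 25 Sox11 cells at 172 and 195 CPM, and 1 cell supplied 81.5% of the counts of dataset A. It had 1 count in all Enpp2-rich cells and 14.5 CPM in the rest, from 1 cell (adjusted p = 0.231). Pou2f2 and Pou6f1 each reached 10 counts in 1 of 16 and 2 of 25 Sox11 cells and in no other class, at 24.3 and 6.90 CPM for Pou2f2 and 7.34 and 7.49 CPM for Pou6f1. Each of these low levels rests on 3 cells. The Pou2f2 counts of dataset A all came from the cell with 20 Sox11 counts and 2.36% microglial markers, and without the 4 cells of low Sox11 that pool was at 0.

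The Meis genes encode TALE homeodomain proteins, which bind DNA together with partners of the same class. Meis2, a factor of striatal and olfactory bulb neurons, reached 10 counts in 7 of 16 and 12 of 25 Sox11 cells and in no Enpp2-rich or rest cell. Pooled Meis2 was at 221 and 761 CPM in Sox11 cells, 0.0813 and 0 CPM in Enpp2-rich cells and 0.0618 CPM in the rest (adjusted p = 0.230). Within dataset B the Meis2 cells lay on 2 plates, 10 of 12 Sox11 cells on P1 and 2 of 6 on P2, against 0 of 3 on P3 and 0 of 4 on PL4. Enpp2-rich cells of dataset B came mostly from PL4 (10 of 16) and P3 (4 of 16), so plate and class partly coincide. Meis1 reached 10 counts in 3 of 16 and 7 of 25 Sox11 cells at 109.7 and 238 CPM, likewise on P1 and P2 alone in dataset B, and 1 cell supplied 78.7% of the counts of dataset A. Meis3 reached it in 3 of 16 and 4 of 25 at 122 and 57.4 CPM, where 1 cell supplied 78.9% and 77.6% of the counts. No Meis gene reached 10 counts in any of the 30 Enpp2-rich cells or the 9 cells of the rest. Meis1 reached it in 1 of the cells past both thresholds.

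**Figure D4:**
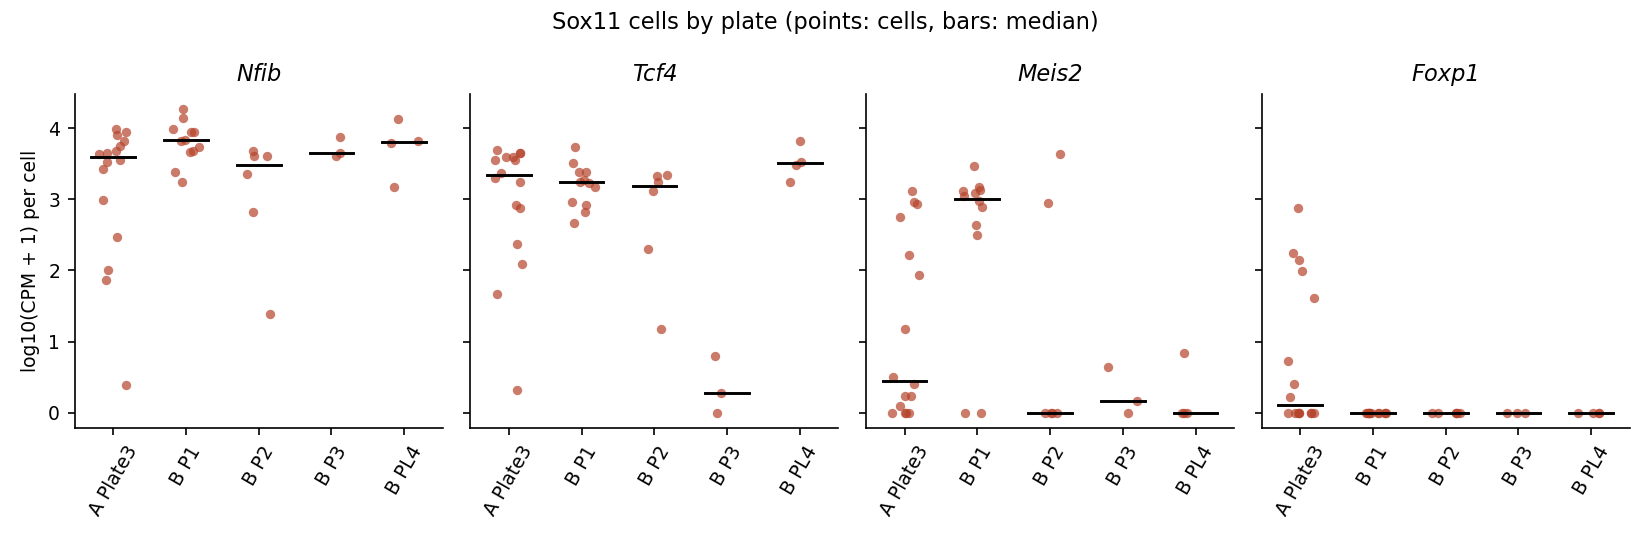
Level of 4 members in Sox11 cells as log10(CPM + 1) (points: cells, bars: medians), by plate, for the single plate of dataset A and the 4 plates of dataset B. Median Nfib is high on every plate, Tcf4 lies near 0 in the 3 cells of P3, Meis2 is concentrated on Plate3, P1 and P2, and Foxp1 appears on Plate3 alone.

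Klf genes encode zinc finger proteins that bind GC-rich and CACCC sequences. Klf7, known for its role in axon growth, reached 10 counts in 10 of 16 and 16 of 25 Sox11 cells, in no Enpp2-rich cell and in 1 of 9 cells of the rest. Pooled Klf7 was at 587 and 425 CPM in Sox11 cells, 0 in both Enpp2-rich pools and 4.94 CPM in the rest (adjusted p = 0.216). Without the 4 cells of low Sox11 the Klf7 pool of dataset A was at 847 CPM, from 8 of 12 cells. Within dataset B its Sox11 pools were 597 and 453 CPM on P1 and P2 and 10.2 and 8.42 CPM on P3 and PL4. P3 and PL4 also held 4 and 10 of the 16 Enpp2-rich cells of dataset B, so plate and class partly coincide for Klf7. Klf13 had no such division: it reached 10 counts in 11 of 16 and 17 of 25 Sox11 cells, 5 of 14 and 11 of 16 Enpp2-rich cells and 4 of 9 cells of the rest, at 395 and 902, 154 and 546, and 721 CPM (log2 difference 0.50 ± 0.94, adjusted p = 0.982). Klf12 was read in 6 of 16 and 2 of 25 Sox11 cells at 276 and 10.7 CPM, and in no Enpp2-rich or rest cell. It was also read in 1 of the cells past both thresholds. Of the 6 cells of dataset A, 2 had low Sox11, among them the cell with 78.7% choroid plexus markers. The remaining Klf rows were read in few cells: Klf6 in 3 Sox11 cells and 3 of the rest, Klf9 in 2 cells of the rest, 1 Enpp2-rich cell and 1 past both thresholds, Klf10 and Klf11 in 3 cells each, Klf16 in 2, and Klf3 and Klf15 in 1 each.

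Fox genes divided between broad and narrow members. Foxn3, a forkhead repressor, reached 10 counts in 12 of 16 and 20 of 25 Sox11 cells, 0 of 14 and 1 of 16 Enpp2-rich cells and 1 of 9 cells of the rest. Its pools were at 443 and 984 CPM, 0.0271 and 28.1 CPM, and 207 CPM, the last from 1 cell (log2 difference 5.53 ± 2.64 (SE), adjusted p = 0.419). In the Enpp2-rich pool of dataset B, 1 cell held 966 of 968 Foxn3 counts, so the level of that pool rests on it. Foxo3, which is linked to stem cell quiescence, reached 10 counts in 3 of 16 and 9 of 25 Sox11 cells and in 1 of 14 and 2 of 16 Enpp2-rich cells, at 15.2 and 223 against 8.07 and 29.2 CPM (adjusted p = 0.871). Single cells supplied 84.3% of the Foxo3 counts of the Sox11 pool of dataset A and 100% and 90.2% of those of the Enpp2-rich pools. It reached 10 counts in no cell of the rest.

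Foxp1 and Foxp2 encode related factors of striatal neurons. Foxp2 reached 10 counts in 2 of 16 and 10 of 25 Sox11 cells at 62.8 and 309 CPM, and it had no count in the Enpp2-rich cells or the rest (adjusted p = 0.244). Of the Foxp2 counts of dataset A, 88.1% came from 1 cell. Foxp1 reached 10 counts in 6 of 16 Sox11 cells of dataset A at 77.8 CPM and had no count in the 25 of dataset B. It was also read in 1 Enpp2-rich cell of dataset B and in 1 cell of the rest. With Foxp1 at 0 in the Sox11 cells of dataset B and Foxp2 in 2 Sox11 cells of dataset A, these cells do not show whether the 2 genes are read together. Datasets A and B differ in plate and in the CD11b gate, and which of these goes with the Foxp1 difference cannot be told apart.

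Pax6, a paired-box factor of a subset of olfactory bulb interneurons, reached 10 counts in 5 of 16 and 3 of 25 Sox11 cells at 231 and 17.4 CPM and in 1 Enpp2-rich cell at 21 counts (adjusted p = 0.382), and 1 cell supplied 74.2% of the counts of dataset B. Of these Sox11 cells, 3 of 5 and 2 of 3 also had Meis2, against 7 of 16 and 12 of 25 of all Sox11 cells.

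Otx2 alone, among the members read in 8 or more cells, reached 10 counts in no Sox11 cell. It was read at that floor in 4 of 14 and 7 of 16 Enpp2-rich cells, in 0 of 16 and 0 of 25 Sox11 cells and in 0 of 9 cells of the rest. Its pools were at 147 and 339 CPM in Enpp2-rich cells, and the Sox11 cells held 4 counts in 80707277. The log2 difference was -12.14 ± 2.96 (SE, adjusted p = 0.234). Among cells at 10 counts the Otx2 level ran from 2.58 to 1055 CPM in dataset A and from 101 to 1560 CPM in dataset B. The exact 95% intervals of the shares were 8.39% to 58.1% and 19.8% to 70.1%. Most Enpp2-rich cells of either dataset stayed under 10 counts of Otx2. Otx2os1, transcribed from the opposite strand of the Otx2 locus, reached 10 counts in 5 of 16 Enpp2-rich cells of dataset B at 97.0 CPM and had no count in the other 4 groups. Of these 5 cells, 4 also had Otx2. A strand setting for the counting is not given in the sources used here, and reads from overlapping parts of both genes could not be separated.

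Sox9, which maintains glia and stem cells, was read in all classes. It reached 10 counts in 6 of 14 and 12 of 16 Enpp2-rich cells, 5 of 16 and 3 of 25 Sox11 cells and 3 of 9 cells of the rest. The pools stood at 61.3 and 476 CPM in Enpp2-rich cells, 189 and 32.8 CPM in Sox11 cells and 161 CPM in the rest. The direction differed between the datasets (log2 difference -1.44 ± 1.49 (SE), adjusted p = 0.883), and the cell with 972 Sox11 counts supplied 48.1% of the Sox9 counts of the Sox11 pool of dataset A. That cell gave more to astroglia markers, a list that holds Sox9, than to neuroblast markers, and 1 cell supplied 76.4% of the Sox9 counts of the Enpp2-rich pool of dataset A. Without the 4 cells of low Sox11 the Sox11 pool of dataset A was at 142 CPM of Sox9. In dataset B, 11 of the 12 Sox9-positive Enpp2-rich cells also had Nfia and 6 also had Otx2. Of all 16 Enpp2-rich cells there, 13 had Nfia and 7 had Otx2. Sox5 was read in 3 of 16 Sox11 cells of dataset A, 3 of 16 Enpp2-rich cells of dataset B and 2 of 9 cells of the rest, with no count in the other 2 pools. Sox1, a gene of neural progenitors, was read in 3 of 16 Sox11 cells of dataset A at 32.0 CPM and nowhere else. Sox8, a glial gene, reached 10 counts in 2 cells, both of the rest.

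The Hes genes, repressors best known downstream of Notch, were sparse. Hes6, which unlike its relatives favours neuronal differentiation, reached 10 counts in 1 of 16 and 7 of 25 Sox11 cells and in 3 of 14 and 4 of 16 Enpp2-rich cells. Its pools were at 28.7 and 213 CPM against 70.6 and 193 CPM, and it had no count in the rest (adjusted p = 0.990). The Hes6 counts of the Sox11 pool of dataset A all came from the cell with 972 Sox11 counts, and without the 4 cells of low Sox11 that pool was at 0. Hes1 reached 10 counts in 3 of 9 cells of the rest, 1 Enpp2-rich cell and no Sox11 cell. Zic1, a cerebellar and dorsal midline factor, reached 10 counts in 2 Enpp2-rich cells. Of the members not yet named, Pou5f2 reached 10 counts in 2 Sox11 cells, Foxk1 in 2 Enpp2-rich cells, Foxn2 and Sox12 in 1 cell of each of these classes, Foxo1 in 1 Enpp2-rich cell and 1 of the rest, and Foxj3, Foxk2 and Pbx4 in 1 Sox11 cell each.

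**Figure D5:**
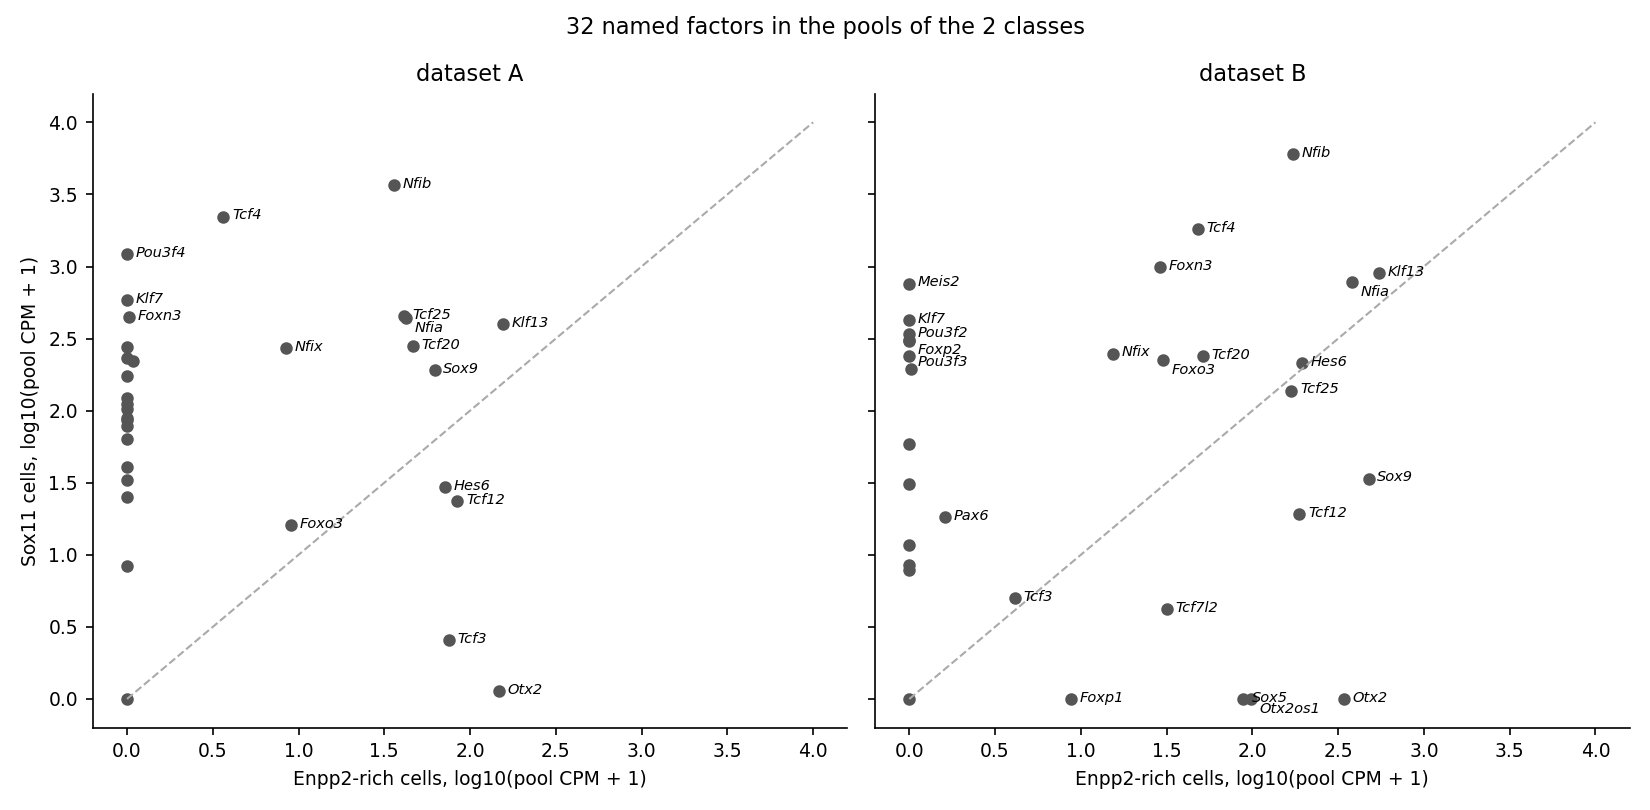
Pooled level of the 32 members described with values, as log10(CPM + 1), in Sox11 cells (vertical) against Enpp2-rich cells (horizontal), for dataset A (left) and dataset B (right); the dashed line marks equal levels. Members at the left edge had no or almost no counts in Enpp2-rich cells, and Otx2 lies at the lower right in both datasets.

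Some members were read in 1 class alone. Of the 39 members with 10 counts in 3 or more cells of the 3 classes together, 9 (23.1%) were read in 3 or more Sox11 cells and in no other class, against 13.3% of 7498 genes. They included Meis1, Meis2, Meis3, Foxp2, Pou2f2, Pou6f1, Klf12 and Sox1. Without the 4 cells of low Sox11, Pou2f2 was left with 2 such cells. The 2 cells past both thresholds belong to no class here, and Meis1 and Klf12 each reached 10 counts in 1 of them. Otx2 and Otx2os1 (5.13%) were read in 3 or more Enpp2-rich cells alone, against 2.97% of genes, and no member was read in 3 or more cells of the rest alone, against 0.56%.

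Factors outside the families gave a frame for these patterns. Of 18 rows of interneuron-lineage factors, 12 had a higher CPM in Sox11 cells in both datasets and 0 a lower one, and edgeR called 0 of the 12 tested. Over all 13099 genes with a count in a pool, 27.9% were higher in both datasets and 11.9% lower, and the lists below are to be set against these shares. Sp8, for example, was read in 15 of 16 and 16 of 25 Sox11 cells and had no count in either Enpp2-rich pool (adjusted p = 0.216). Of 15 rows of the Notch pathway around the Hes genes, 3 were higher and 1 lower. Notch2 reached 10 counts in 11 of 14 and 10 of 16 Enpp2-rich cells at 186 and 336 CPM, and in 4 of 16 and 5 of 25 Sox11 cells at 24.8 and 65.1 CPM (adjusted p = 0.360). Of 4 rows of roof plate, choroid and multiciliation factors, 1 was lower and 0 higher. It was Msx1, a roof plate homeobox gene that had no count in the Sox11 pools and was at 56.8 and 389 CPM in Enpp2-rich cells (adjusted p = 0.223). Of 11 corepressor rows 3 were higher and 1 lower, of 4 TALE partner rows 1 was higher, and of 3 Wnt readout rows 1 was higher. As for the interneuron list, edgeR called 0 of the 10 Notch, 8 corepressor, 2 roof plate and 2 Wnt rows tested, where it called 0 of 7189 genes in all, and no TALE partner row had enough counts to be tested.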

How the data were processed

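The authors deposited whole-number counts of reads per gene and cell for 82 cells, with 530630 to 7765650 counts per cell. Per the submitters' processing notes, the tools were FastQC 0.12.1, STAR 2.7.10b and featureCounts of Subread 2.1.1, and the builds named are GRCm39 and mm10, with no role given. Per the labels' protocols, cells were sorted singly into plates. Sequences and their positions are from RefSeq tables (GRCm38.p6), and all 61 members were matched by symbol.

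Cells were classed by Sox11 (10 or more counts) and Enpp2 (1% or more of counts). No cell was filtered out, no doublet caller was run, and no 2 cells had identical counts. Counts were summed per class and dataset (at least 3 cells a pool). The 2 cells past both thresholds stayed out of the fit, and the rest, in 1 dataset, is given by values. edgeR 4.0.16 (filterByExpr, TMM, quasi-likelihood test, no block, Benjamini-Hochberg, threshold 0.05) in R 4.3.3 was the test, with DESeq2 1.42.0 as an alternative. Pools of 9312 genes were also simulated. At a dispersion of 0.1, edgeR recovered 83.6% of log2 changes of 2 and 100% of changes of 4 and 6. With the dispersion of each gene estimated from the pools, it recovered 0%, 0% and 3%. Over the 7189 genes of the fit on the data, the median dispersion was 3.324. The p-values measure only the spread between pools. The SE of a log2 difference was back-calculated as its size over the square root of the quasi-likelihood F statistic. It therefore adds nothing to the test and is no separate measure of spread.

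A member was described with values if it had 10 or more counts in 8 or more cells, or in 3 or more cells of 1 class and none of the other 2. Factors outside the families were named if at 10 counts in 8 or more cells. Thinning to 500000 counts used a fixed seed. Tables were handled in pandas 2.3.3 and numpy 2.4.6 under Python 3.11.15, exact intervals came from scipy 1.17.1, and plots from matplotlib 3.10.9. Alternatives changed the thresholds, the depth, the totals, the scaling, the filter, the block and the tool, or left out a pool. The members, classes, lists and tests were chosen with earlier results of these data known. Both pools of a dataset share its sort gate, per the labels, so the dataset can serve as a block. Pool deviations correlated at 0.303 between the classes over 7189 genes. Some items were withheld and are not reported here; counts over all members include them.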

Additional observations from a re-analysis of the deposited data

Results flagged for a closer look

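For 7 of the 29 members at 10 counts in 8 or more cells (24.1%, against 26.8% of all such genes), the difference between Sox11 and Enpp2-rich cells pointed in opposite directions in the 2 datasets, as log2(CPM + 1) of the pools. Whether the datasets differ was not tested, since each gives 1 pool per class. Hes6 was at -1.27 in dataset A and 0.15 in dataset B. Foxp1 was at 6.30 and -3.13. Sox5 was at 6.67 and -6.46. Tcf25 was at 3.46 and -0.29. Tcf3 was at -4.87 and 0.28. Sox9 was at 1.61 and -3.82. Tcf7l2 was at 6.47 and -2.93.

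Single cells carry several of these values. One cell held 92.9% of the Sox5 counts of the Sox11 pool of dataset A, and another held 87.1% of those of the Enpp2-rich pool of dataset B. All Tcf7l2 counts of the Sox11 pool of dataset A, all Tcf3 counts of the Enpp2-rich pool of dataset A and all Hes6 counts of the Sox11 pool of dataset A came from 1 cell each.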

How the results depend on the processing

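With edgeR, 0 genes and 0 members were called under the other thresholds, totals, scalings and depths tried and with the dataset as a replicate block (608 genes and 14 members at an unadjusted p under 0.05). Without the filter on low counts 371 genes and 8 members were called, and with DESeq2 3173 and 23; the cause was not tested. Leaving out 1 pool in turn gave 0 to 198 genes and 0 to 5 members, with 198 and 5 without the Sox11 pool of dataset A and 111 and 3 without that of dataset B. Members higher in both datasets numbered 22 to 26 and members lower 2 to 5, with 5 without the deepest cell of each pool. The difference in members per cell was 6.25 to 9.75. Of 574 fitted differences of single members under an alternative, 531 kept direction and side of the threshold, 31 passed it and 12 changed sign, none of these past the threshold. Tcf25 went to -0.3 and -0.31 with Sox11 at 100 and 1000 or more counts, and Tcf7l2 to -3.53 with 1000 or more, a setting chosen after the data were seen. Leaving out a pool took Hes6 to 0.18, Foxp1 to -10.2, Sox5 to -13.69 and -0.81, Klf13 to -0.09, Tcf25 to -0.05, Foxo3 to -0.56, Sox9 to 0.06 and Tcf7l2 to -2.49. Thinning to 500000 counts moved the median number of members per cell by at most 0.5, from 13 to 12.5 in Sox11 cells of dataset A. The intervals are over cells and cover counting error only, which leaves out the spread between animals, plates and sorts.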

Other observations

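Of the 2 cells past both thresholds, the cell with 443 Sox11 counts and 3.45% Enpp2 had 9 members at 10 or more counts, including Nfic with 142 and Nfib with 136 counts, and no Otx2 at that floor. The other, with 85 Sox11 counts and 1.93% Enpp2, had 11, including Tcf25 with 4072, Tcf4 with 3438 and Nfib with 1164 counts.

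Within the rest, Klf9, a Krüppel-like factor of mature neural cells, reached 10 counts in 2 cells, with 4015 and 2620 counts. Those cells gave 1.64% and 5.23% of their counts to astroglia and quiescent stem cell markers, whereas the other 4 cells of the rest with 2.75% to 4.05% of such markers did not reach 10 counts of Klf9. The cell with 42.9% oligodendrocyte markers had no member at 10 counts.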
